A study of Mus musculus with 6 samples.

Results

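The Hox genes encode the homeodomain transcription factors that lie in 4 clusters, HoxA, HoxB, HoxC and HoxD. All rows of the deposited table named Hox, then a cluster letter from a to d, then a number were taken, which gave 39 genes beside 23959 other rows: 11 of HoxA, 10 of HoxB, 9 of HoxC and 9 of HoxD. The RNA came from mouse bone marrow, from the most primitive haematopoietic stem cells (long-term, LT-HSC), sorted after lineage depletion for Sca-1, Kit and CD150 and against CD34, CD48 and Flk2. The tested libraries were 3 from ItpkB-/- mice, homozygous for an allele labelled ENU-induced Ms T-less (a mutant made with the mutagen ENU), and they were set against 3 from wild-type (WT) litter mates. Both genotypes are on the C57BL/6 background, and each library combines 4 mice and 10000 or more sorted cells. The labels name no Cre or promoter that would confine the allele to blood cells, and give the age only as matched. Nothing in them says that replicates came from separate experiments, so p-values measure the spread between these pools.

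Hox proteins set positional identity along the body axis in the embryo, and the genes of a cluster are switched on in their order along the chromosome. Each gene belongs to a paralogue group, numbered 1 to 13, whose members in different clusters descend from a common ancestor. In blood formation the HoxA and HoxB genes are active in stem and early progenitor cells and are shut down as cells mature, and Hoxa9 is best known for its part in stem cell self-renewal and in leukaemia. Hox proteins bind DNA together with the TALE homeodomain proteins of the Meis and Pbx families.

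The libraries held 4024203 to 7470329 reads, and 3 reads, taken as the detection floor, correspond to 0.393 to 0.746 normalized CPM (CPM, counts scaled to the size of the library, here with the authors' further factor). That floor covers counting error only. Itpkb itself measured 10.2, 13.99 and 18.2 normalized CPM in the ItpkB-/- libraries, against 22.1, 23.6 and 25.1 in WT libraries (limma, log2 difference -0.73, adjusted p = 0.172), lower in every library labelled ItpkB-/- without passing the test. With same-numbered libraries as blocks it passed (adjusted p = 0.0541). The labels do not say whether the allele lowers its own transcript. Across all genes, 661 of 12008 tested were called, which is 5.5%. A gene is called where its adjusted p does not exceed 0.15, a limit taken from the study's design. ItpkB-/- library 2 had the highest summed level of 9 granulocyte markers. It was 18034 normalized CPM, against 899 to 6140 in the other ItpkB-/- libraries and 684 to 3544 in WT libraries. Mpo was at 588 in ItpkB-/- library 1 and at 8728.5 in library 2. Elane (95.6 and 1303), Ctsg (56.8 and 620) and Prtn3 (222 and 1192) were also higher in ItpkB-/- library 2 than in library 1. S100a8, at 2132 and 2232, and Ngp, at 532 and 467, were similar in ItpkB-/- libraries 1 and 2. Kit, whose protein is among those the sort selected for, was at 615 to 879 normalized CPM in ItpkB-/- and 834 to 911 in WT libraries. Transcripts of the 3 genes whose proteins the sort gated out, Cd34, Cd48 and Flt3, summed to 234 to 289 normalized CPM in ItpkB-/- and 192 to 249 in WT libraries, most of it Cd34. Cd48 measured 33.3, 30.8 and 7.08 in ItpkB-/- libraries, against 8.95, 13.6 and 4.65 in WT libraries. Pax5 of B cells and Cd3g of T cells had no read in any library.

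LT-HSC of both genotypes transcribed HoxA and part of HoxB, almost nothing of HoxC and nothing detectable of HoxD. Of the 39 genes 23 had at least 1 read in some library and 16 had none. HoxA took 2480 of the 3418 Hox reads in the 6 libraries together, HoxB 910, HoxC 28 and HoxD 0. At this depth a count of 0 over all 34671411 reads allows a level of up to 0.0865 CPM, so lower transcription of the silent genes was not detectable.

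HoxA lies on chromosome 6 and is read on the minus strand (positions here and below are on build mm10, with GENCODE M21 gene bounds). Hoxa2 to Hoxa10, which are 8 genes, were high enough to be tested, and Hoxa11 and Hoxa13 had no read. HoxB (chromosome 11, 96194316 to 96368256, plus strand) had 4 tested genes, Hoxb2 to Hoxb5. Hoxb1, Hoxb6, Hoxb8 and Hoxb9 passed 3 reads in at least 1 library without reaching the filter, Hoxb7 had at most 1 read a library, and Hoxb13 had none. In HoxC (chromosome 15, 102921103 to 103036852, plus strand) Hoxc6 was the only gene above 3 reads, at 5, 0 and 3 reads in ItpkB-/- libraries and 1, 9 and 4 in WT libraries. Hoxc4, Hoxc5, Hoxc9 and Hoxc10 had 1 or 2 reads in all, and Hoxc8, Hoxc11, Hoxc12 and Hoxc13 had none. The 9 HoxD genes (chromosome 2, 74668310 to 74765142, plus strand), Hoxd1, Hoxd3, Hoxd4 and Hoxd8 to Hoxd13, had no read in any library.

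Seen by paralogue group, all 9 genes of groups 11 to 13 were without a read in every library, whichever cluster they belong to. Groups 9, 10 and 5 held the highest summed levels. In group 9 Hoxa9 had 927 of 942 reads, in group 10 Hoxa10 had 737 of 739, and in group 5 Hoxb5 had 401 and Hoxa5 215 of 617. The edge of transcription in HoxA lies between Hoxa10 and Hoxa11, which are separated by 1251 bases in the annotation.

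**Figure D1:**
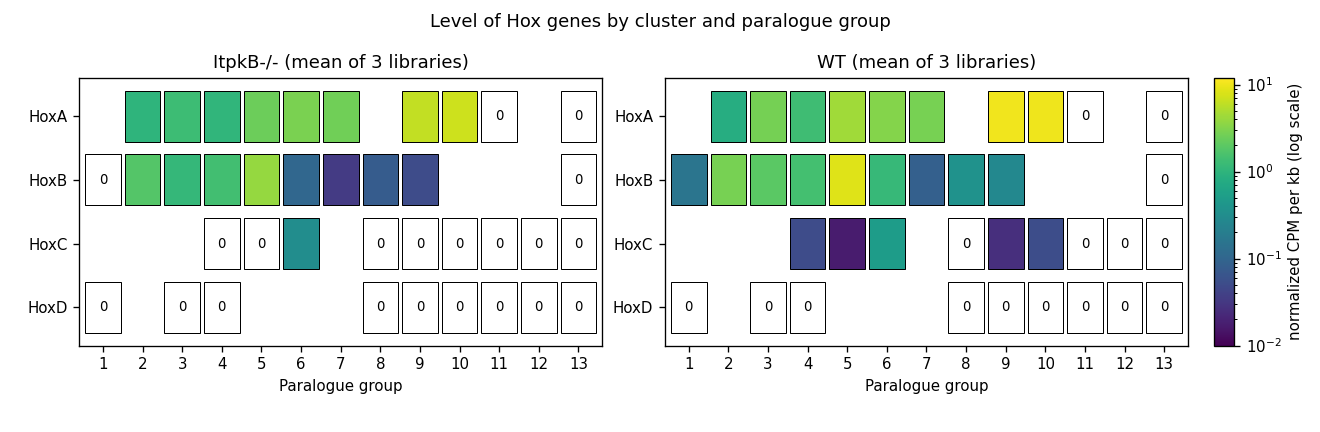
Mean level of Hox genes in ItpkB-/- libraries (left) and WT libraries (right), as normalized CPM per kb of transcript on a logarithmic colour scale, with clusters as rows and paralogue groups as columns (3 libraries a genotype). A box with 0 had no read in that genotype and a gap means that no such gene exists or that it is not shown; the HoxD row and groups 11 to 13 are at 0 in both panels.

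The windows around the transcription starts on either side of that edge are shown for the active genes Hoxa9 and Hoxa10 and for Hoxa11, which had no read. They are RefSeq windows on GRCm38.p6 of 300 bases (250 before the start and 50 after it), given on the minus strand, the strand of the genes, with CG dinucleotides in capitals. Their positions are chr6:52227321-52227620 for Hoxa9, chr6:52240805-52241104 for the upstream one of both Hoxa10 windows and chr6:52245761-52246060 for Hoxa11.
Hoxa9: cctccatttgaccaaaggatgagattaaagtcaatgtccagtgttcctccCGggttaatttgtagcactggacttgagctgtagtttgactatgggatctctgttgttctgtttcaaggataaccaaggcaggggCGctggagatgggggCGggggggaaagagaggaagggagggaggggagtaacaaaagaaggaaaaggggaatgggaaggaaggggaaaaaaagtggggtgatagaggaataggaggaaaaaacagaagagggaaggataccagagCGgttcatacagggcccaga
Hoxa10: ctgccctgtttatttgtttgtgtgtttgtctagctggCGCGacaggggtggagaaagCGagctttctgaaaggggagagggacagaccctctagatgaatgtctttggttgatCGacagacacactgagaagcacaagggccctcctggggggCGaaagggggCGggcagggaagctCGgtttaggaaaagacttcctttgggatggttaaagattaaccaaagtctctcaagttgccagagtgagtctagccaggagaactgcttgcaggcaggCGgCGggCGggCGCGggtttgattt
Hoxa11: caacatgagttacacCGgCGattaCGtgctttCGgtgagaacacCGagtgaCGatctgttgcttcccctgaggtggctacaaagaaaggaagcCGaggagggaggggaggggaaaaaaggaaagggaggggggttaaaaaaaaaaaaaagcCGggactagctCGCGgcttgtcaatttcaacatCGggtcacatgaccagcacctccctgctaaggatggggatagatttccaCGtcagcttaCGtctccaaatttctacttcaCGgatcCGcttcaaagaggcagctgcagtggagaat

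CG dinucleotides numbered 4 in the Hoxa9 window, 12 in the upstream window of Hoxa10 and 15 in that of Hoxa11, against a median of 7 and quartiles of 3 and 20 over all 32851 windows. The downstream window of Hoxa10, whose sequence is not shown, held 21, more than that of Hoxa11. Among the 22 Hox genes with a window, the 9 windows of tested genes held 4 to 29 CG (median 14) and the 12 windows of genes without a read held 4 to 45 (median 20), so the ranges overlapped. The motif TGATNNAT, a Hox and Pbx composite site, was present on either strand in 1 of 9 windows of tested genes and 1 of 12 of genes without a read, against 8.85% of all windows. TGACAG, the core bound by Meis proteins, was in 2 and 0 of these windows, against 19.2% of all, and the TATA box TATAAA in 1 and 2, against 13.6%. The CCAAT box, searched as CCAAT, was in 4 and 8, against 37.4%. Matches of different motifs may overlap, and a match describes only the letters of the window.

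The order of the 12 tested genes was compared per length, as normalized CPM per kb of the longest principal transcript, in WT LT-HSC. Hoxa9 and Hoxa10 led, at 10.4 ± 1.22 and 9.98 ± 0.975 (SD, n = 3), and did not differ beyond their spread. With the length of all annotated exons in place of the transcript, a choice made after seeing the data, they changed places: Hoxa9 was at 6.03 and Hoxa10 at 7.83, Hoxb2 moved to the tenth place of the 12 and Hoxa3 to the eleventh. Hoxb5 followed at 8.59 ± 2.47, within the spread of both. Hoxa5, at 4.42 ± 0.957, lay below these 3 by more than the spread on transcript length; on the length of all exons Hoxb5 was at 5.84 and Hoxa5 at 4.42, a gap not beyond the spread. The remaining genes ran from Hoxa6 at 3.25 ± 1.87 through Hoxb2, Hoxa7, Hoxa3, Hoxb3, Hoxb4 and Hoxa4 to Hoxa2 at 0.833 ± 0.642, and from Hoxa5 downwards neighbours in this order lay within their spread. Hoxa9 stood above 52.3% of the tested genes per length in WT cells, and Hoxa2 above 7.25%. In ItpkB-/- LT-HSC the leading pair was at 6.3 ± 1.13 for Hoxa9 and 7.04 ± 1.74 for Hoxa10. Together these 2 genes made up 54.3%, 49.6% and 47.3% of the summed Hox signal in ItpkB-/- libraries and 50.2%, 48.1% and 46.5% in WT libraries.

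In ItpkB-/- LT-HSC 1 of the 12 tested Hox genes passed the test, Hoxa9, which fell, and no other was called in either direction (limma). The share called lower was 3.24% over all tested genes, and 1 of 12 is 8.33%, so the count alone says little. Hoxa3, Hoxa5, Hoxa9, Hoxa10 and Hoxb5, which are 5 of the 12 or 41.7%, had all 3 ItpkB-/- libraries below all 3 WT libraries, against 11.3% of all tested genes. No tested Hox gene was called higher, against 2.27% of all tested genes. None had all ItpkB-/- libraries above all WT libraries, against 10% of all tested genes. In these bulk samples fewer cells that express a gene and less RNA per cell cannot be told apart.

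Hoxa9 (chromosome 6, 52223100 to 52231089, minus strand), a self-renewal factor of stem cells, measured 19.4, 17.2 and 24.4 normalized CPM in ItpkB-/- libraries (1 to 3 in order), against 31.3, 31.4 and 38.2 in WT libraries. The highest ItpkB-/- library lay below the lowest WT library. Its means were 20.3 ± 3.66 in ItpkB-/- and 33.6 ± 3.93 in WT LT-HSC (SD, n = 3 each). The log2 difference was -0.71 (SE 0.20, limma on log2(normalized CPM + 1), adjusted p = 0.124). The call was lost in 5 of the 6 fits without 1 library, where the adjusted p ran from 0.105 to 0.405. Without ItpkB-/- library 2, the one with the highest granulocyte marker sum, the log2 difference was -0.60 (limma, adjusted p = 0.314). With same-numbered libraries treated as pairs the adjusted p was 0.0294. Hoxa9 and Hoxa10 are the 2 Hox genes whose mean log2 value exceeds 4, the expression limit in the study's design, and with that limit set before testing Hoxa9 had an adjusted p of 0.132.

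Hoxa10 (chromosome 6, 52231197 to 52240854, minus strand), the neighbour of Hoxa9 by 107 bases and a regulator of progenitor proliferation, measured 21.999, 13.2 and 19.0 normalized CPM in the ItpkB-/- libraries, against 27.1, 22.7 and 27.0 in WT libraries. The genotypes did not overlap, though ItpkB-/- library 1 and WT library 2 were close. Its log2 difference of -0.50 (SE 0.23) did not pass (limma, adjusted p = 0.329), and it was -0.31 without ItpkB-/- library 2.

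Hoxb5 (chromosome 11, 96303336 to 96306121, plus strand), whose reporter marks long-term stem cells in the mouse, had the largest difference among the 12 genes. It measured 7.41, 3.26 and 11.5 normalized CPM in the ItpkB-/- libraries, against 15.2, 12.3 and 21.4 in WT libraries. The genotypes did not overlap, and the libraries numbered 2 were the lowest of their genotypes. The log2 difference of -1.14 (SE 0.38) did not pass (limma, adjusted p = 0.179). In limma it passed with same-numbered libraries as blocks (adjusted p = 0.0203) and without ItpkB-/- library 3 (adjusted p = 0.085). Without ItpkB-/- library 2 the log2 difference was -0.72.

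Hoxa3 (chromosome 6, 52169062 to 52213336, minus strand) and Hoxa5 (chromosome 6, 52201754 to 52204587, minus strand), genes of the anterior and middle part of the cluster, followed the same order of groups. Hoxa3 measured 1.96, 4.04 and 3.93 normalized CPM in the ItpkB-/- libraries, against 5.97, 5.83 and 9.31 in WT libraries. Neither gene passed (limma): the log2 differences were -0.91 (SE 0.34, adjusted p = 0.23) for Hoxa3 and -0.73 (SE 0.30, adjusted p = 0.269) for Hoxa5. Hoxa5 measured 4.57, 3.73 and 5.37 normalized CPM in the ItpkB-/- libraries, against 9.7, 6.28 and 8.94 in WT libraries. With same-numbered libraries as blocks Hoxa3 passed (limma, adjusted p = 0.109). The blocked fit thus called Hoxa3, Hoxa9 and Hoxb5, all lower, which are 3 of 12. It called 8.97% of all tested genes lower, 9.15% higher and 18.1% either way. Exons of genes on the opposite strand cover 25.4% of the exon length of Hoxa3, 20.4% of Hoxa7 (Hoxaas3) and 16% of Hoxa4, and a gene on the same strand covers 15% of Hoxa2 and 8.01% of Hoxa3. As the library kit keeps no strand, reads of overlapping genes cannot be told apart there.

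The other 7 tested genes had overlapping genotypes and adjusted p-values of 0.46 or more (limma). Hoxb3 measured 4.14, 2.33 and 4.32 normalized CPM in the ItpkB-/- libraries, against 4.23, 5.08 and 9.31 in WT libraries. Hoxb2 measured 2.61, 2.80 and 3.28 in ItpkB-/- libraries, against 2.74, 5.53 and 5.40 in WT libraries. Their log2 differences were -0.62 (SE 0.36) for Hoxb3 and -0.47 (SE 0.35) for Hoxb2, and WT library 1 lay within the ItpkB-/- range in both. Exons of the antisense gene Hoxb3os cover 52.9% of Hoxb3 and 27.3% of Hoxb2, so their reads cannot be assigned to a strand. Hoxb4, which expands stem cells when it is overexpressed, averaged 3.62 ± 1.02 normalized CPM in ItpkB-/- and 3.67 ± 1.35 in WT LT-HSC (SD, n = 3 each), and its log2 difference was -0.0027 (SE 0.35). Hoxa7 averaged 5.22 ± 0.852 in ItpkB-/- and 5.57 ± 0.492 in WT cells, and its log2 difference was -0.09 (SE 0.29). Hoxa2, Hoxa4 and Hoxa6, the 3 tested HoxA genes with the lowest WT means in normalized CPM not set per length, had wide errors. Hoxa4 measured 0.871, 1.40 and 2.62 normalized CPM in the ItpkB-/- libraries, against 2.98, 2.39 and 0.931 in WT libraries (log2 difference -0.23, SE 0.43). Hoxa6 measured 1.96, 2.64 and 3.01 in ItpkB-/- libraries, against 0.995, 3.44 and 4.10 in WT libraries (log2 difference -0.02, SE 0.42). Hoxa2, the group 2 gene that patterns the hindbrain and branchial arches, had the single positive log2 difference, 0.25 (SE 0.42), with 1.31, 1.71 and 2.36 normalized CPM in the ItpkB-/- libraries, against 0.746, 0.897 and 2.79 in WT libraries.

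**Figure D2:**
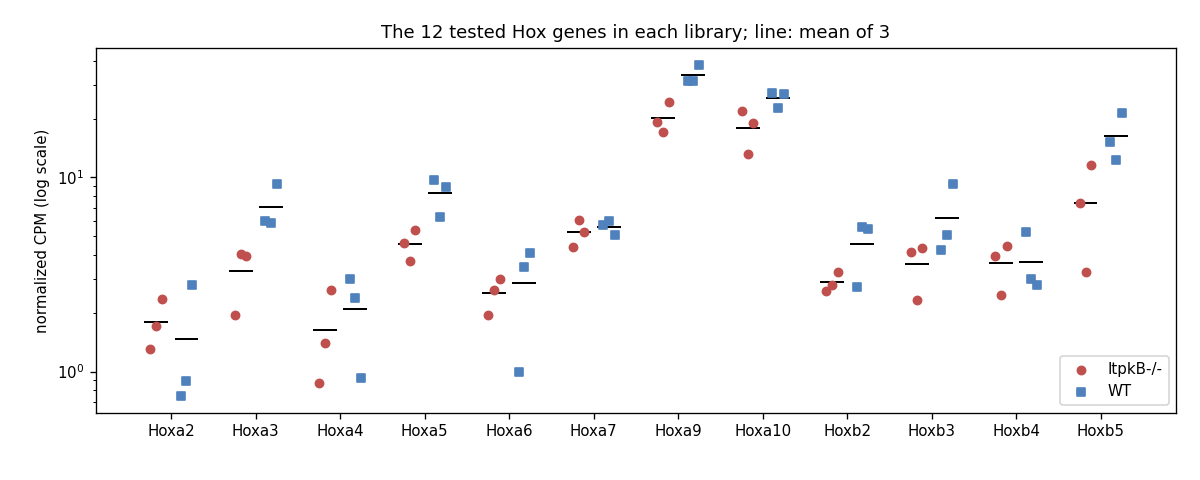
Normalized CPM of the 12 tested Hox genes in each library on a logarithmic axis, ItpkB-/- as circles on the left and WT as squares on the right of each gene, with the mean of 3 libraries as a line. For Hoxa3, Hoxa5, Hoxa9, Hoxa10 and Hoxb5 every circle lies below every square, and for the other 7 genes the groups overlap.

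Over the 12 tested genes 11 log2 differences were negative, with a median of -0.49, where 49.8% of all tested genes were negative with a median of 0.00. These 12 passed a filter on low values, so they do not stand for the family. Without that filter all 23 genes with a read had a value, of which 21 were negative with a median of -0.27, against 49.8% of 15599 genes. Most of the genes added there rest on a few reads. Hoxb1, Hoxc4, Hoxc5, Hoxc9 and Hoxc10 had reads in WT libraries only, so they entered through WT and their negative sign was fixed. The 21 of 23 is therefore no support beyond the 12 tested genes.

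Among the low HoxB genes, Hoxb6 had 1, 0 and 3 reads in ItpkB-/- libraries, against 4, 29 and 8 in WT libraries, with WT library 2 far above the others. It was below the filter for limma, and DESeq2 on the recovered reads called it lower (log2 difference -3.46, SE 1.26, adjusted p = 0.108). Hoxb8 had 0, 3 and 1 reads in ItpkB-/- libraries and 3, 4 and 8 in WT libraries, and Hoxb9 had 0, 0 and 3 in ItpkB-/- libraries and 3, 4 and 4 in WT libraries, close to the floor throughout. Hoxb1 had 4 reads in WT library 1 and none elsewhere.

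Summed over the cluster, HoxA measured 56.8, 50.04 and 66.7 normalized CPM in the ItpkB-/- libraries, against 85.3, 78.9 and 96.2 in WT libraries. HoxB was at 18.3, 11.3 and 24.6 in ItpkB-/- libraries, against 30.8, 31.5 and 42.8 in WT libraries. The ratio of the means was 0.666 for HoxA and 0.516 for HoxB, and no test was made on these sums. HoxA made up 72.7% to 81.5% of the Hox signal in ItpkB-/- and 68.8% to 73.3% in WT libraries, ranges that overlap. The summed level of all Hox genes was lowest in ItpkB-/- library 2, which also had the highest granulocyte marker sum. The part of granulocytic cells in the result was not tested.

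**Figure D3:**
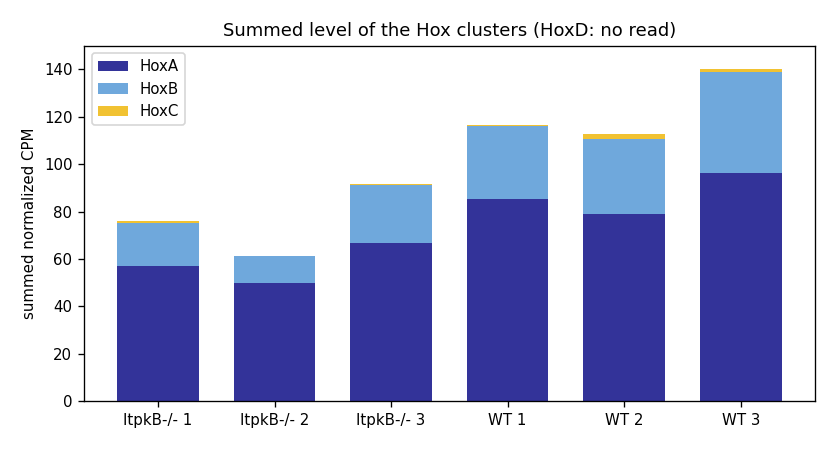
Summed normalized CPM of the HoxA, HoxB and HoxC genes in each library, ItpkB-/- libraries 1 to 3 on the left and WT libraries 1 to 3 on the right. The ItpkB-/- totals run from 61.4 to 91.7 and the WT totals from 112.5 to 140.0.

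The summed level of 7 stem cell markers was 1275 to 1715 normalized CPM in ItpkB-/- and 2037 to 2465 in WT libraries. Hlf, Mecom, Procr and Fgd5, which are 4 of the 7, were called lower (limma), where 3.24% of all tested genes were called lower and 2.27% higher. Slamf1, Ly6a and Kit were not called. Slamf1 measured 42.6 to 59.2 in ItpkB-/- and 46.8 to 56.6 in WT libraries, and Ly6a 108 to 152 in ItpkB-/- and 133 to 162 in WT libraries. Megakaryocyte markers summed to 846, 723 and 1582 in ItpkB-/- libraries 1 to 3 and 665 to 828 in WT libraries, with 1 of 5 called higher. The high sum was thus that of ItpkB-/- library 3. Itga2b measured 266, 267 and 390 in ItpkB-/- and 129 to 145 in WT libraries. Vwf went the other way in ItpkB-/- libraries 1 and 2, at 114, 111 and 269, against 156 to 203 in WT libraries. Erythroid markers summed to 45.7 to 178 in ItpkB-/- and 54.9 to 274 in WT libraries, with 1 of 5 called higher. None of the 9 granulocyte markers was called, and of 5 endothelial markers, which summed to 124 to 175 in ItpkB-/- and 191 to 197 in WT libraries, Tie1 and Emcn were called lower, while Pecam1 measured 54.2 to 78.8 in ItpkB-/- and 42.3 to 53.2 in WT libraries. Stromal markers summed to 7.34 to 12.9 in ItpkB-/- and 10.8 to 11.96 in WT libraries, with Col3a1 and Lepr at 0 in every library. Most of the stromal sum was Col1a2 in every library. B cell markers summed to 0 to 2.95 in ItpkB-/- and 0.558 to 2.24 in WT libraries, and T cell markers to 9.37 to 10.3 in ItpkB-/- and 8.82 to 11.9 in WT libraries. Cd4 and Lck made up nearly all of the T cell sum, as Cd3g was at 0 and Cd3e was at 0 outside WT library 1 (0.249). The part of these cell types in the Hox differences was not tested.

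Meis1 was present at a far higher level per length than any Hox gene, above 94.3% of the tested genes in WT cells. Of the 9 TALE genes 7 were tested and none passed (limma), where 5.5% of all tested genes did, so the count says little about these genes. An unadjusted p under 0.05 was reached by 1 of the 7, against 1858 of all 12008 tested genes (limma). On the recovered reads edgeR and DESeq2 called 0 of the TALE genes. Meis1, the partner that acts with Hoxa9, measured 286, 177 and 244 normalized CPM in the ItpkB-/- libraries, against 307, 285 and 278 in WT libraries. ItpkB-/- library 1 overlapped the WT libraries and library 2 was the lowest; without that library the log2 difference was -0.14. With all libraries its log2 difference was -0.33 (SE 0.17, limma, adjusted p = 0.382), and it passed with same-numbered libraries as blocks (limma, adjusted p = 0.0896).

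Pbx2, Pbx3, Pbx4, Pknox1 and Meis3 overlapped between genotypes and had adjusted p-values of 0.42 or more (limma). Pbx2 averaged 68.1 ± 10.9 normalized CPM in ItpkB-/- and 67.8 ± 3.56 in WT cells, and Pknox1, a TALE protein that also pairs with Pbx, 44.0 ± 4.67 in ItpkB-/- and 46.6 ± 4.59 in WT cells (SD, n = 3 each). Pbx3 averaged 17.0 ± 5.13 in ItpkB-/- and 13.1 ± 1.04 in WT cells, and Pbx4 8.27 ± 0.589 in ItpkB-/- and 5.39 ± 2.42 in WT cells. The remaining members were near the floor: Meis3 averaged 0.590 ± 0.470 in ItpkB-/- and 1.45 ± 1.14 in WT cells, Meis2, too low to be tested, 0.656 ± 0.302 in ItpkB-/- and 1.41 ± 0.625 in WT cells, and Pknox2 had 1 read.

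Of 40 genes known to regulate Hox clusters, 37 were tested and 3 passed (limma), where 5.5% of all tested genes did, so the count says little about these regulators. Among 17 tested activators, mostly of the MLL and super elongation complexes, Mllt3 fell and 16 did not pass. Mllt3, the AF9 subunit that reads acetylated histones, measured 117, 88.4 and 142 normalized CPM in the ItpkB-/- libraries, against 225, 190 and 282 in WT libraries, with a wide gap between the genotypes. Its log2 difference was -1.01 (SE 0.19, limma, adjusted p = 0.0327), and the call was lost without WT library 3 (adjusted p = 0.2). Kmt2a, the methyltransferase at the core of the MLL complex, did not pass (log2 difference -0.30, limma, adjusted p = 0.543), and the caudal genes Cdx1, Cdx2 and Cdx4, which switch Hox genes on in the embryo, had no read.

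Among the 20 repressors, Polycomb genes for the most part, Ezh2 rose and Cbx6 fell. Ezh2, the methyltransferase of Polycomb complex PRC2, measured 105, 142 and 132 normalized CPM in the ItpkB-/- libraries, against 61.2, 98.04 and 85.4 in WT libraries, without overlap (log2 difference 0.64, SE 0.19, limma, adjusted p = 0.133). Cbx6, a chromodomain protein of Polycomb complex PRC1, was at 67.7, 51.9 and 68.3 in ItpkB-/- libraries, against 100, 78.8 and 92.1 in WT libraries (log2 difference -0.52, SE 0.16, limma, adjusted p = 0.15). Both calls sit near the limit: Ezh2 lost its call in 4 of the 6 fits without 1 library, with an adjusted p of up to 0.328, and Cbx6 in 5 of 6, with up to 0.409. Over the 37 tested genes the median log2 difference was -0.04 beside 0.00 over all genes tested, and the blocked fit called 10 of the 37, where it called 18.1% of all tested genes. Those were the activators Mllt3, Kdm6b and Kmt2a, all lower, and the repressors Cbx6, Cbx8, Phc1 and Phc3, lower, and Ezh2, Phc2 and Suz12, higher.

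**Figure D4:**
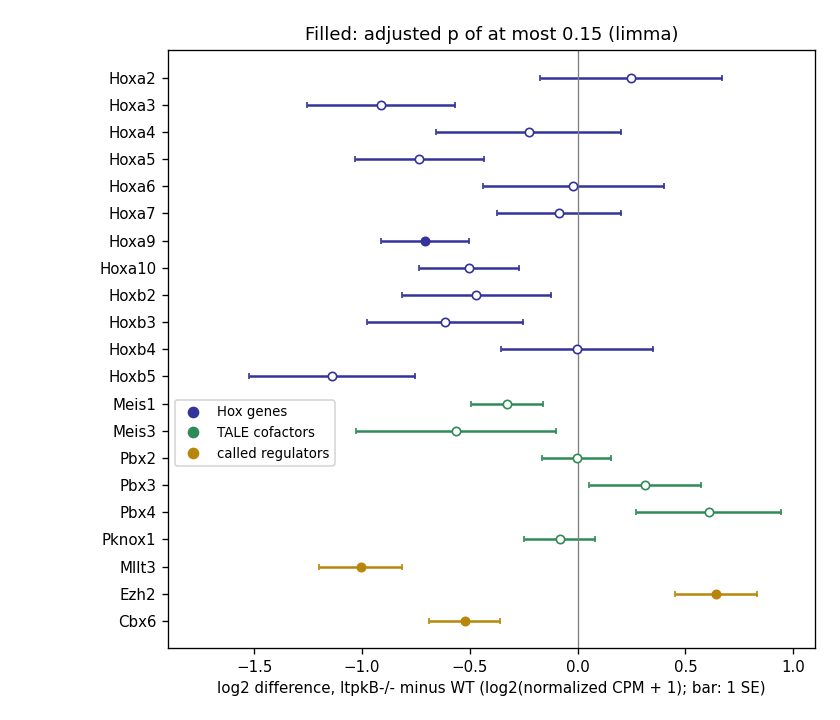
Log2 difference, ItpkB-/- minus WT, with 1 SE to each side, for the 12 tested Hox genes, 6 tested TALE cofactors and the 3 called regulators (limma, 3 libraries a genotype). Filled circles mark an adjusted p of at most 0.15: Hoxa9, Mllt3, Ezh2 and Cbx6 are filled, and 11 of the 12 Hox genes lie left of 0.

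No further row inside the clusters was high enough to be tested, and no tested gene beside them passed. Of the 11 further rows that lie between the outer Hox genes 10 had no read, Hotair, Hoxa11os and Hoxd3os1 among them. These include 6 microRNA rows, but 1075 of all 1107 microRNA rows had no read, so the libraries do not measure them. The antisense transcript of HoxA listed as 2700086A05Rik, which the annotation calls Hoxaas3, had 7, 6 and 1 reads in ItpkB-/- libraries, against 0, 3 and 5 in WT libraries, and shares exon sequence with Hoxa3 and Hoxa7 on the other strand. Beside the clusters, 19 of the 24 nearest coding genes were tested and none passed (limma, and 0 by edgeR or DESeq2), with a median log2 difference of 0.05. As 5.5% of all tested genes passed in limma, the count says little about these neighbours. An unadjusted p under 0.05 was reached by 1 of the 19, against 1858 of all 12008 tested genes (limma). The 4 without a read were Evx1 and Evx2, homeobox genes at the ends of HoxA and HoxD, and Calcoco2 and Ttll6 beside HoxB. The gene with the smallest p, named after its values were seen, was Calcoco1 beside HoxC, at 30.4 ± 2.53 normalized CPM in ItpkB-/- and 43.0 ± 4.35 in WT LT-HSC (SD, n = 3 each, log2 difference -0.49, limma, adjusted p = 0.198). It was called lower with the replicate block (adjusted p = 0.0899).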

How the data were processed

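The deposited table holds normalized signal, CPM with a further scaling factor by the authors, for all listed genes in 6 libraries. CASAVA 1.8.2, cutadapt, TopHat2 2.0.8b, Partek and edgeR on build mm10 are named in the submitters' processing notes; how reads were counted and their length are not given in the sources used here. Values of each library were whole multiples of 1 step, and dividing by it gave whole reads for 100% of values (tolerance 0.01 reads). The kit (NuGEN Ovation V2, per the labels' protocols) amplifies 1 to 5 ng of RNA and its reads are not separate molecules.

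Genes with at least 1 normalized CPM in at least 3 libraries were tested with limma 3.58.1 (R 4.3.3, mean-variance trend) on log2(normalized CPM + 1), on which changes of low genes come out smaller than they are. Benjamini-Hochberg adjustment ran over all 12008 genes. On the recovered reads edgeR 4.0.16 called 692 and DESeq2 1.42.0 called 896 genes at the same limit. The labels number the replicates, and deviations from the group mean correlated at 0.2681 to 0.2964 within same-numbered libraries and -0.2269 to -0.0475 between others, so the numbers were taken to pair the libraries. As deviations cancel within a genotype, positive correlations within same-numbered libraries draw those between others below them. What a number marks is not stated, and the pairing was taken from the same values that were then tested. Positions and lengths are from GENCODE M21, matched by symbol for 23628 genes, and promoter windows from RefSeq.

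The members, the lists of cofactors, regulators, neighbours and markers, and the tests were chosen with earlier results of these data known. Hox genes, Itpkb and the cofactors were to be named, and of the regulators and neighbours those called. Changes of setting were a replicate block, the pseudocount, the filter, the scaling, the tool, the call limit and leaving out libraries. Some genes and sequences are not reported here.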

Additional observations from a re-analysis of the deposited data

How the results depend on the processing

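The call count over all genes was 661; it was 2176 with the replicate block, 386 when genes with a mean log2 value above 4 were selected before testing, 139 without both libraries numbered 2, 182 at an adjusted p of at most 0.05, and 74 to 837 without 1 library. The Hox count of 1 was 3 with the replicate block, 0 without a filter, 0 without both libraries numbered 2, 2 by DESeq2 (Hoxa9 and Hoxb6), 0 at an adjusted p of at most 0.05, and 0 to 2 without 1 library. For the TALE genes the count of 0 was 2 with the replicate block and 0 to 1 without 1 library. The regulators' count of 3 was 10 with the replicate block, 1 without a filter, 1 without both libraries numbered 2, 1 at an adjusted p of at most 0.05, and 0 to 3 without 1 library. For genes inside or beside the clusters, of which only those beside them passed the filter, the count of 0 was 3 with the replicate block.

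Hoxa9 had a negative log2 difference in all 15 alternatives, from -0.84 to -0.60, and was called in 8. Hoxb5 was negative in all 14 of its alternatives, from -1.49 to -0.72, and was called in 2. The signs of Hoxa6 and Hoxb4, which were not called, held in 9 of 14 alternatives each, and that of Hoxa7 in 13 of 14. The cause of these changes was not tested. Fits with 2 libraries in a genotype have fewer samples, and levels of 1 or a few reads a library limit every statement on HoxC and on Hoxb6 to Hoxb9.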

Other observations

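WT library 2 held 29 of the 45 Hoxb6 reads of the whole series and 14 of the 28 HoxC reads, with Hoxc6 at 9 reads; these values were picked after they were seen. Snx11, a gene beside HoxB chosen in the same way, measured 5.45, 9.79 and 9.70 normalized CPM in the ItpkB-/- libraries, against 11.4, 6.28 and 33.7 in WT libraries, and its high value came from WT library 3 alone. Cbx8, a Polycomb gene that missed the call without the replicate block (limma, log2 difference -1.28, SE 0.41, adjusted p = 0.159), measured 0.653, 1.86 and 2.36 normalized CPM in the ItpkB-/- libraries, against 2.98, 6.58 and 6.52 in WT libraries, without overlap. With the replicate block it was called lower (adjusted p = 0.0394).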
